A study of Mus musculus with 6 samples.

Results

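Small nucleolar RNAs (snoRNAs) and small Cajal body RNAs (scaRNAs) were compared between miR-21-deleted and control LSK cells, the Lineage- c-Kit+ Sca1+ fraction of mouse bone marrow that holds the blood stem cells and earliest progenitors. They were taken as every probe set of the array that the platform annotation names for 1 gene whose symbol begins with Snora, Snord or Scarna, and they were selected on their mean over all 6 arrays, which had to reach 1.92 log2 units, the median over the array. That gave 62 probe sets for 59 genes, of 72 such probe sets (68 genes) at any level and of 65956 probe sets on the array. By class they were 40 C/D box probe sets (38 genes), 17 H/ACA box probe sets (16 genes) and 5 Cajal body probe sets (5 genes). The difference between groups played no part in this level cut, but the gene family was chosen with earlier results of these data known.

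The knockout group was 3 RNA samples from mice with floxed miR-21 alleles and the Mx1-Cre transgene (miR-21flox/flox:Mx1-Cre+), and the control group was 3 from Cre-negative littermates that also carried the floxed alleles (miR-21flox/flox:Mx1-Cre-). Mice of both groups received pIpC at 250 µg per injection, 7 times, from an age of 4 to 6 weeks, and the cells were sorted 4 weeks after that. The Mx1 promoter that drives Cre answers to interferon, which pIpC induces in many cell types, so deletion is not limited to blood cells. Only knockout mice carried Cre, so effects of Cre and of miR-21 loss cannot be told apart. The sources used here do not say whether a sample was 1 mouse, so the p-values measure the spread between these 6 samples.

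SnoRNAs are short non-coding RNAs of the nucleolus that base-pair with ribosomal RNA. C/D box snoRNAs carry the methyltransferase fibrillarin and guide ribose methylation, whereas H/ACA box snoRNAs carry the pseudouridine synthase dyskerin. A few, such as U17, U13, U8 and U14, act in cutting, folding or acetylating the rRNA precursor. ScaRNAs do the same for spliceosomal small nuclear RNAs in Cajal bodies. In mammals most are cut out of introns of a host gene, which is often a gene for a ribosomal protein, a translation factor or a long non-coding RNA, and a few have a promoter of their own.

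Since most of these RNAs are made from a host transcript, the start regions of 4 hosts are shown, the 2 hosts that held 2 called genes each (Snhg3 and Ncl) and 2 that held 1 (Snhg9 and Wdr43). Snhg3 and Snhg9 are long non-coding RNA genes. Ncl codes for nucleolin, and Wdr43 for a protein of the small subunit processome. The sequences are from RefSeq on GRCm38.p6, at chr4:132353637-132353786 (minus strand) for Snhg3, chr17:24719916-24720065 (minus strand) for Snhg9, chr1:86359426-86359555 (minus strand) for Ncl and chr17:71616115-71616244 (plus strand) for Wdr43. Each begins 100 bases before the annotated start and runs 5′ to 3′, with any TATAAA or CACGTG in capitals. The matches in capitals all lie after the annotated start, beginning at base 23 in Snhg3, 35 in Snhg9 and 18 in Wdr43.
Snhg3: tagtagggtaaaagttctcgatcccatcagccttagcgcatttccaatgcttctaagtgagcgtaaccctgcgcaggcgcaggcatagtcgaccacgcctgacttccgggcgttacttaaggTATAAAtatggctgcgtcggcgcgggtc
Snhg9: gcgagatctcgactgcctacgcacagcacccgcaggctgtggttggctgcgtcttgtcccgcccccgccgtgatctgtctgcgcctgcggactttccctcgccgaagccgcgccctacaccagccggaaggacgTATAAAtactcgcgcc
Ncl: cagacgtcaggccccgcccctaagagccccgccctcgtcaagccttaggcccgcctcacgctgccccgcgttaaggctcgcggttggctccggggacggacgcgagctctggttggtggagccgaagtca
Wdr43: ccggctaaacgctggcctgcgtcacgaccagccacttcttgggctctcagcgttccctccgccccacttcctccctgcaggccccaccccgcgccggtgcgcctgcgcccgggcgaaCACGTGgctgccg
The E-box CACGTG, searched on both strands from 250 bases before to 50 bases after the start, was found at 9 of the 40 host genes with such a sequence (22.5%) and at 7.24% of 27025 genes. TATAAA, searched in the same way, was found at 8 of 40 host genes (20%) and at 14.2% of all genes. These are matches of letters in a window and not measured binding sites.

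Between the groups, 27 of the 62 snoRNA and scaRNA probe sets passed limma's test at an adjusted p under 0.05, which is 43.5%, against 24.9% of all 32985 probe sets tested. Of these, 8 rose (12.9%, against 11.5% of all) and 19 fell (30.6%, against 13.4% of all) in knockout LSK cells. The risers were 6 genes: Snora73a and Snora73b (the U17 snoRNAs), Snord13 (U13), Scarna10, Snord104 and Snora78. The largest falls were those of Snord69, Snord92, Snora75, Snord73a, Snord16a and Scarna6. Changes are the mean log2 value of knockout arrays minus that of control arrays, and they ran from -0.9995 for Snord69 to 0.98 for Snora73a. Their median was -0.14, and that of all probe sets tested was 0.04. Knockout and control values did not overlap for 11 higher and 23 lower snoRNA and scaRNA probe sets, together 34 or 54.8%, against 24.4% higher and 20.5% lower (45.0% together) among all probe sets. With a fold of at least 1.5 required beside the adjusted p, 6 rose and 10 fell, where 1.46% of all probe sets rose and 5.22% fell.

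**Figure D1:**
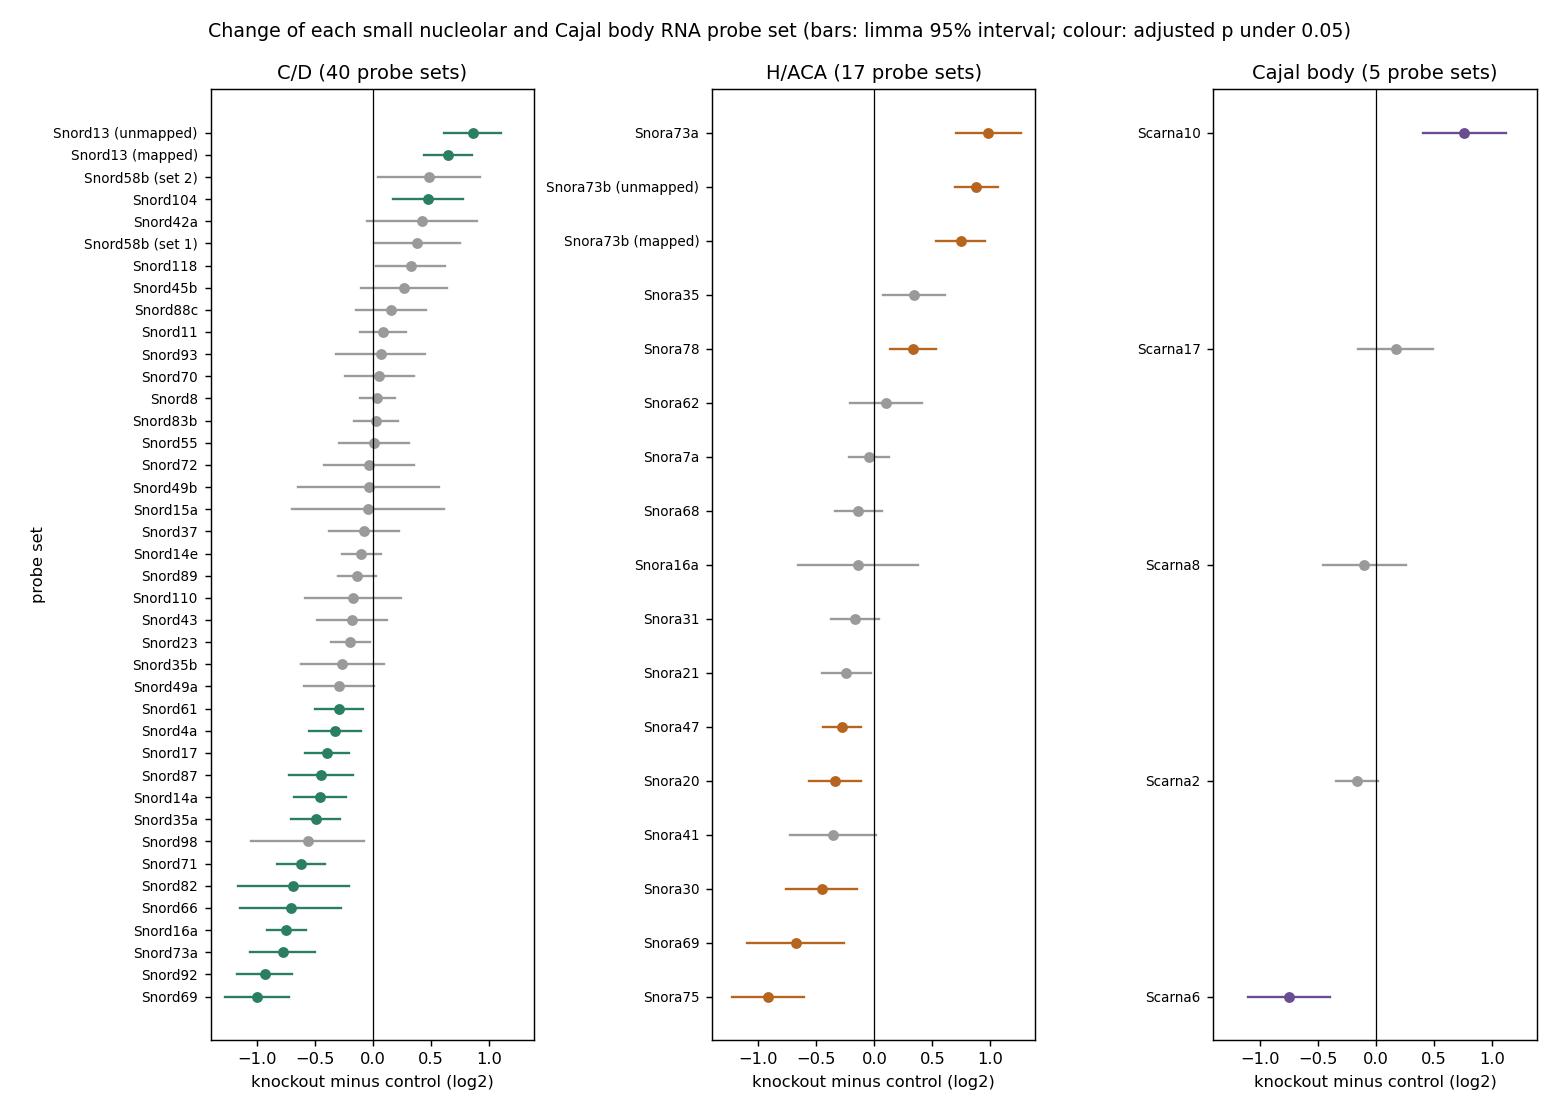
Change (knockout minus control, log2) of each of the 62 probe sets in 3 panels by class, sorted by change. Points are the limma estimates, bars the 95% intervals, and colour marks an adjusted p under 0.05. In each class coloured points stand at both ends, from 0.98 for Snora73a to -0.9995 for Snord69.

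Among C/D snoRNAs 3 of 40 probe sets rose and 13 fell, with a median change of -0.12. Among H/ACA snoRNAs 4 of 17 rose and 5 fell, with a median of -0.14. Among scaRNAs 1 of 5 rose and 1 fell, with a median of -0.10. The share called was thus 40.0% for C/D, 52.9% for H/ACA and 40.0% for Cajal body RNAs. The difference between classes was not tested. Of the 4 H/ACA probe sets that rose, 3 belong to the U17 pair, and 2 of the 3 C/D probe sets that rose belong to Snord13, so the counts of genes that rose are 2 C/D, 3 H/ACA and 1 Cajal body.

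The snoRNAs that act in rRNA processing are described first. U17, encoded by Snora73a and Snora73b inside Snhg3, is an H/ACA snoRNA required for early cleavage of the rRNA precursor. The probe set named for Snora73a alone is one that its identifier marks as unmapped. It had 5.54, 5.45 and 5.78 log2 units on the knockout arrays, against 4.76, 4.39 and 4.69 on the control arrays. Every knockout value lay above every control value. The change was 0.98 ± 0.12 (SE; limma adjusted p = 0.0013), a 1.97-fold rise. Snora73b had 2 probe sets, one mapped to the genome and one that its identifier marks as unmapped. The unmapped one had 6.35, 6.14 and 6.34 on knockout arrays, against 5.48, 5.35 and 5.35 on control arrays (change 0.88 ± 0.08, limma adjusted p = 0.000318). The mapped one read 6.35, 6.15 and 6.27 in knockout, against 5.66, 5.50 and 5.37 in control (change 0.74 ± 0.09, limma adjusted p = 0.00133). Neither showed overlap between the groups. The U17 copies are close in sequence, so the array may not tell Snora73a from Snora73b. A further probe set is named for Snhg3 and Snora73a together, and it rose by 0.62 ± 0.08 (limma adjusted p = 0.002).

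U13, encoded by Snord13, is a C/D snoRNA with a promoter of its own that directs acetylation of the small subunit rRNA in human cells. Its unmapped probe set had 7.83, 7.67 and 7.89 on knockout arrays, against 7.12, 6.76 and 6.93 on control arrays. The mapped one had 7.68, 7.63 and 7.78 on knockout arrays, against 7.20, 6.90 and 7.06 on control arrays. Again no knockout value fell within the control range. The changes were 0.86 ± 0.10 (limma adjusted p = 0.00124) and 0.64 ± 0.09 (limma adjusted p = 0.00221).

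U8, encoded by Snord118, is needed for maturation of the large subunit rRNAs and also has its own promoter. It had 2.84, 2.77 and 3.24 in knockout, against 2.59, 2.55 and 2.76 in control. The values did not overlap, but the change of 0.32 (95% interval 0.03 to 0.62) missed the threshold, with a limma adjusted p of 0.103. A second Snord118 probe set, at a mean of 0.61, lay under the level threshold.

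U14 takes part in both methylation and processing of the small subunit rRNA, and 2 of its gene copies had a probe set of their own. Snord14a, in the ribosomal protein gene Rps13, had 6.71, 6.39 and 6.69 in knockout, against 7.06, 6.98 and 7.11 in control, and fell by 0.46 on the log2 scale (limma adjusted p = 0.0127). Snord14e, in the chaperone gene Hspa8, has a probe set that its identifier marks as unmapped. Snord14e had 7.74, 7.82 and 7.64 in knockout, against 7.90, 7.83 and 7.77 in control, values that overlap. Its change was -0.10 (95% interval -0.27 to 0.07, limma adjusted p = 0.332). A further probe set, named for Hspa8 with Snord14c, Snord14d and Snord14e, had a change of -0.04 (limma adjusted p = 0.632). U14 copies share sequence, and the difference between the changes of Snord14a and Snord14e was not tested.

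Of the guide snoRNAs of the C/D class, Snord104 was the remaining one that rose. It guides methylation of the large subunit rRNA in human cells and lies in the non-coding gene Gm36220. Its knockout values were 7.38, 7.38 and 7.37, against 7.20, 6.64 and 6.87 in control, a change of 0.47 ± 0.13 (limma adjusted p = 0.0325). The knockout values were nearly equal to each other and above all control values.

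The C/D snoRNA with the largest fall was Snord69, a guide for the large subunit rRNA in human cells that sits in Gnl3, the nucleostemin gene. It had 7.45, 7.03 and 7.03 on knockout arrays, against 8.26, 8.13 and 8.12 on control arrays. All knockout values were below all control values, and the change of -0.9995 ± 0.12 (limma adjusted p = 0.00109) is a 2.0-fold fall. Snord92, in Wdr43, is also a guide for the large subunit. It had 5.25, 4.996 and 5.26 in knockout, against 6.25, 6.08 and 5.98 in control (change -0.94 ± 0.10, limma adjusted p = 0.000686). Snord73a, in the ribosomal protein gene Rps3a1, had 3.90, 3.82 and 4.04 in knockout, against 4.97, 4.52 and 4.61 in control (change -0.78 ± 0.12, limma adjusted p = 0.00361). Both were apart from control on every array.

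Snord16a, in Rpl4, guides methylation of the small subunit rRNA in human cells. It had 7.76, 7.62 and 7.65 in knockout, against 8.48, 8.47 and 8.33 in control, and its replicates lay close together. The change was -0.75 ± 0.07 with a limma adjusted p of 0.000405, the smallest among the C/D snoRNAs. Snord66, in the translation factor gene Eif4g1, had 4.39, 4.29 and 4.18 in knockout, against 5.46, 4.87 and 4.65 in control (change -0.71 ± 0.19, limma adjusted p = 0.029). Its control replicates were spread over almost 1 log2 unit. Snord82, in Ncl, had 4.02, 3.24 and 3.85 in knockout, against 4.17, 4.66 and 4.34 in control. The groups were separated by only a small gap, and the change was -0.69 ± 0.21 (limma adjusted p = 0.0444).

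Snord71, in a span shared by Gm17344 and Ap1g1, had 6.28, 6.33 and 6.48 in knockout, against 7.13, 6.87 and 6.96 in control (change -0.62 ± 0.09, limma adjusted p = 0.00254). Snord35a, in Rpl13a, had 6.07, 5.81 and 5.81 in knockout, against 6.49, 6.31 and 6.38 in control (change -0.50 ± 0.09, limma adjusted p = 0.00735). Both fell without overlap. The other 4 C/D snoRNAs that fell, named here to complete the count after their values were seen, were Snord87 (-0.45), Snord17 (-0.40), Snord4a (-0.33) and Snord61 (-0.30). Besides Snord14e and Snord16a, the C/D probe set with the highest mean value was Snord89, with 8.07, 8.09 and 7.95 in knockout, against 8.27, 8.14 and 8.13 in control. Its change of -0.14 (95% interval -0.31 to 0.03) did not pass (limma adjusted p = 0.188). The probe sets of different genes bind with different strength, so their values do not rank the amounts of the RNAs.

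**Figure D2:**
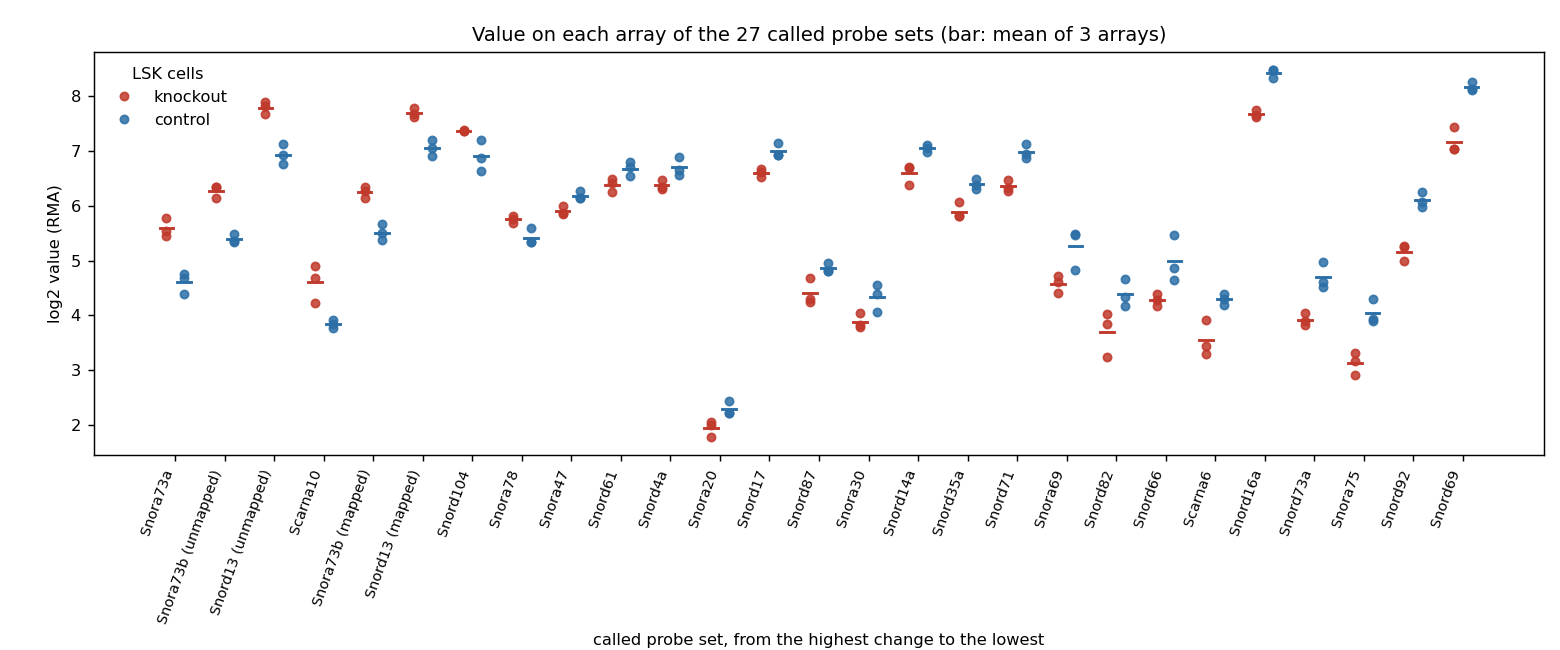
Log2 value on each array for the 27 probe sets that passed limma's test, ordered from the highest change to the lowest, with knockout points beside control points. The 8 probe sets at the left have all knockout points above the control points, and the 19 at the right have them all below.

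Of the H/ACA guides, which direct pseudouridylation, Snora78 rose beside the U17 pair. It lies in a span shared by Snhg9 and Rps2 and had 5.69, 5.82 and 5.76 in knockout, against 5.59, 5.34 and 5.34 in control (change 0.34 ± 0.09, limma adjusted p = 0.0259). The lowest knockout value and the highest control value were 5.69 and 5.59, so the gap was narrow.

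Snora75, the U23 snoRNA in Ncl, had the largest fall of the class, with 3.17, 2.91 and 3.31 in knockout, against 3.90, 4.30 and 3.94 in control. The groups stood apart, and the change was -0.92 ± 0.13 (limma adjusted p = 0.00274). Snora69, in the X-linked ribosomal protein gene Rpl39, had 4.72, 4.41 and 4.62 in knockout, against 4.82, 5.47 and 5.49 in control (change -0.68 ± 0.18, limma adjusted p = 0.0287). One control array, at 4.82, was close to the knockout values. Snora30, in the chromatin remodeller gene Srcap, had 4.05, 3.82 and 3.79 in knockout, against 4.39, 4.56 and 4.07 in control (change -0.45 ± 0.13, limma adjusted p = 0.0397). Snora20, in the chaperonin gene Tcp1, had 1.79, 2.01 and 2.05 in knockout, against 2.21, 2.22 and 2.44 in control (change -0.34 ± 0.10, limma adjusted p = 0.0372), near the level threshold in both groups. Snora47, in Zbed3, had 5.85, 5.87 and 6.00 in knockout, against 6.27, 6.14 and 6.15 in control (change -0.28 ± 0.07, limma adjusted p = 0.0241). The H/ACA probe sets with the highest mean values, beside Snora47, were Snora68 and Snora31. They had changes of -0.14 (95% interval -0.34 to 0.06) and -0.17 (-0.37 to 0.04), and neither passed.

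Among the scaRNAs, Scarna10 (U85), a composite guide for modification of the U5 small nuclear RNA in human cells, rose. It had 4.68, 4.23 and 4.91 in knockout, against 3.91, 3.77 and 3.84 in control (change 0.76 ± 0.15, limma adjusted p = 0.0105). Scarna6, in the autophagy gene Atg16l1, fell, with 3.45, 3.29 and 3.92 in knockout, against 4.40, 4.20 and 4.30 in control (change -0.75 ± 0.15, limma adjusted p = 0.011). These 2 scaRNAs thus changed by similar sizes in opposite directions, with no overlap of the groups in either. The other 3 did not pass. Scarna2, which has its own promoter in human cells, had a change of -0.16 (95% interval -0.34 to 0.02). Scarna8 had -0.10 (-0.45 to 0.26), and Scarna17 had 0.17 (-0.15 to 0.49).

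The 35 probe sets that did not pass held changes from -0.56 for Snord98 to 0.48 for Snord58b. Snord58b, whose gene lies in Rpl17, was measured by 2 probe sets, which gave 0.38 and 0.48 (limma adjusted p = 0.121 and 0.104) and no overlap between groups. The identifier of the probe set with 0.38 names another chromosome than that of the gene. Hosts were assigned by gene, so both are counted under Rpl17. At the level threshold, the members just inside were Snora35 (mean 1.95), Snord45b (2.06) and Snora20 (2.12), and the candidates just outside were Snord85 (1.86), Snord123 (1.70) and Snord111 (1.497). Snora35 alone had a control mean under the threshold, at 1.78, with 2.12 in knockout (change 0.34, limma adjusted p = 0.0682). The other 61 reached it in both groups.

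Calls were more frequent among the brighter probe sets. At or above the median snoRNA and scaRNA level of 4.64, 19 of 31 passed (61.3%), against 35.7% of all probe sets in that range. Under it, 8 of 31 passed (25.8%), against 19.3% of all. The median pooled SD between replicates was 0.19 for snoRNA and scaRNA probe sets and 0.10 for all probe sets tested.

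**Figure D3:**
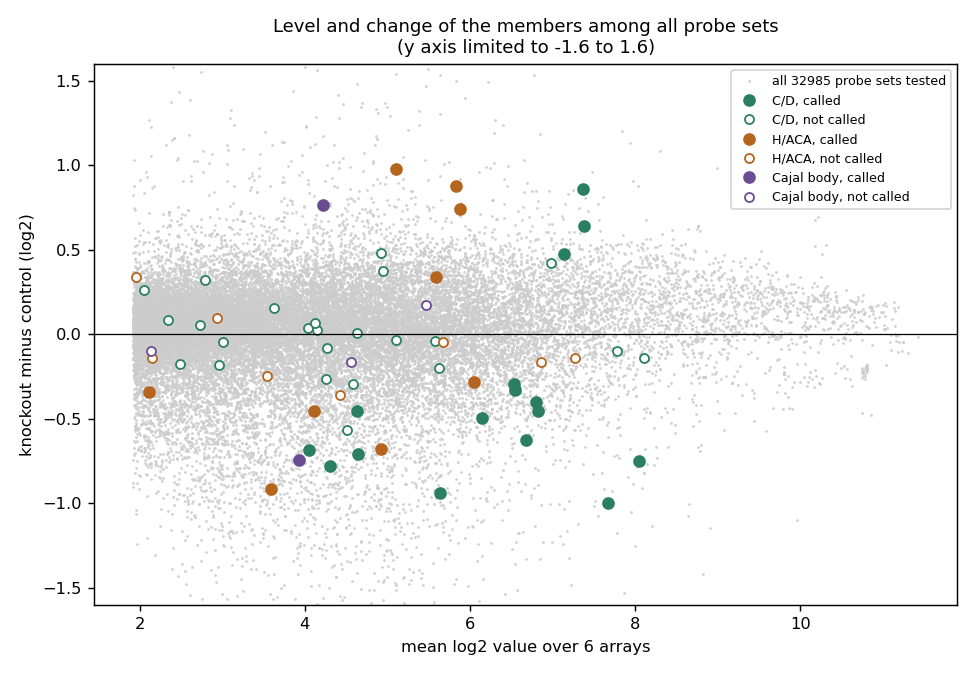
Mean log2 value over 6 arrays (x axis) against change (knockout minus control, log2, y axis) for the 62 probe sets, coloured by class, over all probe sets tested in grey, with the y axis limited to changes near those of the 62. Filled points passed limma's test. They are found from a mean of 2.12 (Snora20) to 8.05 (Snord16a) and on both sides of 0.

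Grouping by host gave different counts. Of 62 probe sets, 57 lay within the span of another RefSeq gene. Over all probe sets tested 11.5% rose and 13.4% fell. Among 19 in ribosomal protein genes, 0 rose and 6 fell (31.6%), with a median change of -0.14. Among 25 in other protein-coding genes, 1 rose (4.0%) and 11 fell (44.0%), with a median of -0.28. Among 9 in long non-coding RNA genes, 4 rose (44.4%) and 0 fell, with a median of 0.17. These 4 were the U17 probe sets (3) and Snord104, and the remaining 5 had changes from -0.30 to 0.17. A further 4 lay where spans of a coding and a non-coding gene overlap, and of these Snora78 rose, Snord71 and Snord87 fell and Snord8 had 0.04. Among the 5 with no host span, both Snord13 probe sets rose and 0 fell. The differences between host kinds were not tested, and the zero counts are for limma's adjusted p under 0.05.

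**Figure D4:**
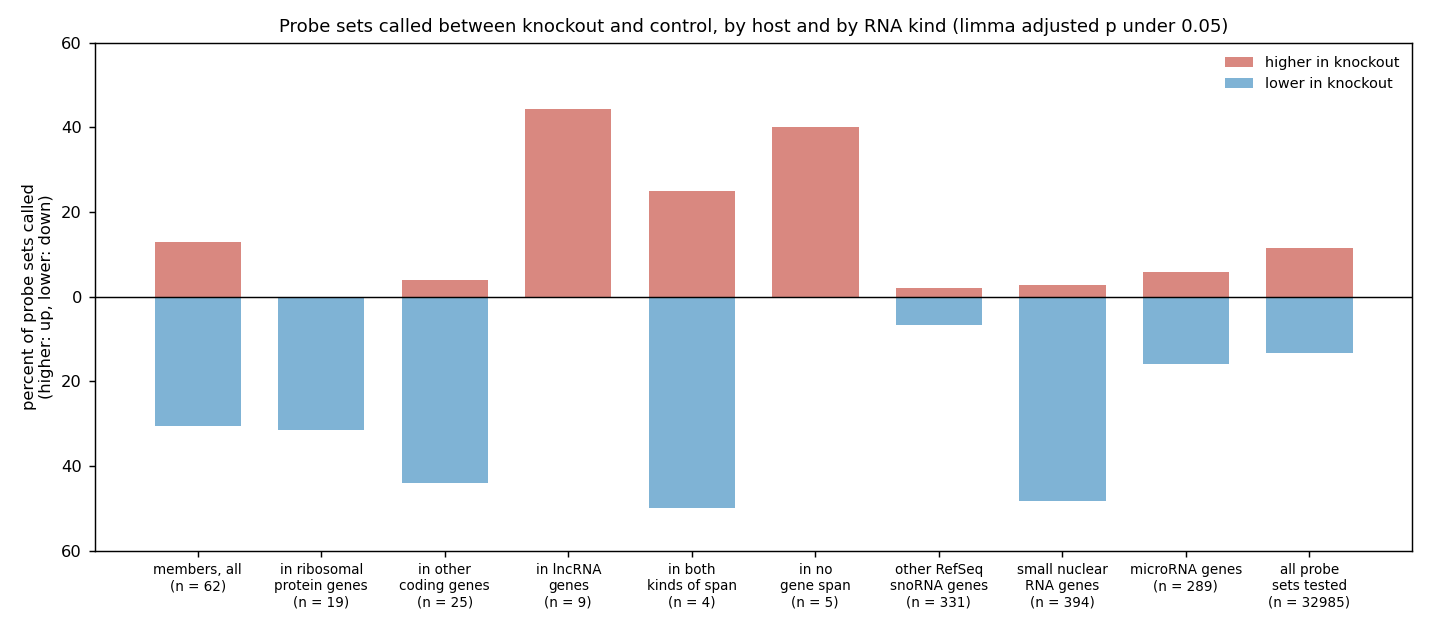
Percent of probe sets called higher (upward bars) or lower (downward bars) in knockout LSK cells, for the 62 snoRNA and scaRNA probe sets, for their subsets by host, and for other kinds of RNA, with the number tested under each bar. The bars for long non-coding RNA hosts (44.4% higher) and for no gene span (40.0% higher) point only upward, on 9 and 5 probe sets, and that for ribosomal protein hosts only downward (31.6%). For all probe sets tested the bars are 11.5% higher and 13.4% lower.

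A host had its own probe set at the threshold for 28 snoRNAs and scaRNAs, in 26 host genes. Of the 28 small RNAs 2 rose and 14 fell, with a median change of -0.32. Of the 26 hosts 1 rose (3.85%) and 2 fell (7.69%), with a median of 0.08. The shares called among all probe sets tested were 11.5% higher and 13.4% lower. Hosts were brighter, with a median level of 6.32 against 3.70 for all probe sets tested. At or above 4.64 the shares among all probe sets were 17.9% higher and 17.8% lower. The 14 small RNAs that fell had a median change of -0.65, and the 13 hosts that hold them had a median of 0.07 and a range from -0.28 to 0.26. Of these 13 hosts 1 fell, Snx5, the host of Snord17, with a change of -0.28 ± 0.07 (limma adjusted p = 0.0253). For Snord71 the host value was that of Gm17344 (mean 2.42) and not that of Ap1g1. Snord69, which had the largest fall, and Snord66, Snord35a, Snord14a and Snord4a also fell, but their hosts have no probe set of their own at the threshold. Probe sets that name a host with other genes had -0.08 for Gnl3 (Snord69), 0.003 for Rpl13a (Snord35a) and 0.03 for Rpl23a (Snord4a). None of these passed (limma adjusted p = 0.595, 0.980 and 0.749), and their values belong to no single gene.

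Snord73a had a change of -0.78 beside 0.14 for its host Rps3a1, Snord16a had -0.75 beside 0.07 for Rpl4, and Snora69 had -0.68 beside 0.26 for Rpl39. None of these 3 ribosomal protein genes passed. Ncl, the host of Snora75 and Snord82, had -0.25 ± 0.09 (limma adjusted p = 0.0715), and Wdr43, the host of Snord92, had -0.19 ± 0.07 (limma adjusted p = 0.0809). Scarna6 had -0.75 beside -0.17 for Atg16l1. Scarna10 rose, and so did its host Ncapd2, a condensin subunit gene, by 0.39 ± 0.06 (limma adjusted p = 0.00346). Snord70 and Snord11 had changes of 0.05 and 0.09, neither of which passed, and their host Nop58, which codes for a core protein of C/D particles, fell by 0.45 on the log2 scale (limma adjusted p = 0.0329). Across the 28 pairs Pearson's r was 0.33 and Spearman's rho 0.32, given as a description, since points from 1 host share it and all share the 6 arrays. The difference between a small RNA and its host was not tested. A probe set within an intron also does not tell the mature snoRNA from unspliced host RNA.

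**Figure D5:**
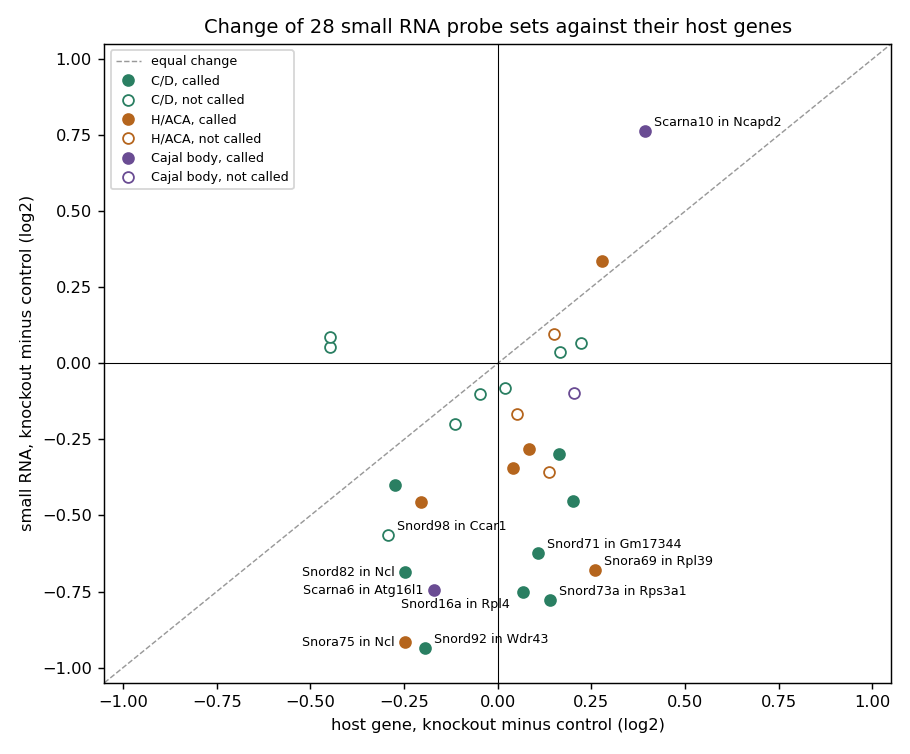
Change of the host gene (x axis) against change of the small RNA within it (y axis), knockout minus control on the log2 scale, for 28 small RNAs in 26 hosts. Hosts lie between -0.45 and 0.39, and small RNAs between -0.94 (Snord92) and 0.76 (Scarna10); the dashed line marks equal change.

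Genes for proteins that work with these RNAs were read from 7 lists. Of the C/D core proteins Nop58 fell, as above, and Fbl, the fibrillarin gene, had 0.10 (limma adjusted p = 0.306). Nop56 and Snu13 had no probe set of their own at the threshold. Of the 4 H/ACA core protein genes 2 rose and 0 fell. Nhp2 had 6.90 ± 0.05 in knockout, against 6.58 ± 0.07 in control (SD, n = 3 each). Its change was 0.32 (limma adjusted p = 0.0117), and Nop10 rose by 0.25. Gar1 had 0.21 (limma adjusted p = 0.0547), and Dkc1, the dyskerin gene, 0.02.

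Of 12 assembly factor genes tested, 3 rose and 0 fell. They were Znhit3 (0.51) and Pih1d1 (0.29), of the machinery that builds C/D particles, and Ruvbl2 (0.42), an ATPase of the same machinery. Of 16 Cajal body and cap protein genes, 4 rose and 2 fell. Wrap53 (0.49), whose protein carries scaRNAs to Cajal bodies, Lsm11 (0.44), Gemin2 (0.35) and Lsm10 (0.24) rose. Ell2, an elongation factor gene, fell by 1.45 on the log2 scale, and Usp36, a nucleolar deubiquitinase gene, fell by 0.60.

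Of 24 genes for trimming and turnover of small RNAs, 4 rose, all exosome subunits (Exosc5 by 0.47, Exosc4 by 0.38, Exosc8 by 0.28 and Exosc7 by 0.23), and 2 fell, Rbm7 (-0.33), an adaptor that brings the exosome to nuclear RNA, and Tent4b (-0.25), a poly(A) polymerase. Of 35 genes of the small subunit processome, in which the U3 snoRNA works, 5 rose and 3 fell, among them Utp11 (0.42), Nol10 (-0.84) and Utp18 (-0.53). Of 13 genes for RNA polymerase I transcription, which makes the rRNA precursor, 4 rose and 0 fell, among them Taf1a (0.36), Taf1c (0.33) and Polr1e (0.30). The median changes of these 7 lists lay between -0.17 and 0.23. Of the 106 genes tested over the 7 lists 22 rose (20.8%) and 8 fell (7.55%) by limma's adjusted p under 0.05. The shares were 11.5% and 13.4% of all probe sets tested, but 17.9% and 17.8% of those at or above 4.64. The list genes were not matched to other genes by level, and the difference in shares was not tested. The count of list genes that rose was 8 without knockout array 1 or control array 2, 7 without knockout array 3 and 13 without control array 3. The count of list genes that fell was 5 without knockout array 1 and 4 without knockout array 2 or control array 1 or 3.

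Other kinds of short RNA on the array had other counts. Of 394 probe sets for small nuclear RNA genes, 11 rose and 190 fell (48.2%), with a median change of -0.27. Of 331 for other RefSeq snoRNA and guide RNA genes, which carry provisional symbols or other names, 7 rose and 22 fell (6.65%), with a median of 0.04. The median level was 4.64 for the named snoRNAs and scaRNAs and 3.10 for these. In the 60 of these at or above 4.64, 2 rose and 11 fell (18.3%). Of 289 for microRNA genes, 17 rose and 46 fell (15.9%), and of 13493 for protein-coding genes 1789 rose and 1480 fell (11%). These differences were not tested. The telomerase RNA is an H/ACA RNA with the same core proteins, and its gene Terc had a change of -0.03 (limma adjusted p = 0.839).

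Cell type markers moved with the groups, where 11.5% of all probe sets tested rose and 13.4% fell. All 13 neutrophil and granule genes rose, with a median change of 1.27, and their mean on an array was 6.51 to 6.63 in knockout and 4.95 to 5.15 in control. Of 7 LSK and stem cell markers tested, 0 rose and 6 fell, Hlf by 0.88 on the log2 scale and Kit by 0.46, with array means of 6.42 to 6.45 in knockout and 6.89 to 6.96 in control. The sort marker Sca-1 was not checked, since the annotation names no probe set for its gene Ly6a. Of the 7 lineage markers tested 2 rose and 1 fell, with array means of 2.93 in knockout and 2.78 to 2.86 in control. The part of these differences in the snoRNA changes was not tested, and in sorted bulk cells fewer cells of a type and less RNA per cell cannot be told apart. Array medians lay between 1.89 and 1.95, with correlations of 0.994 to 0.996 within groups and 0.975 to 0.984 between groups. The probe set at the deleted locus spans miR-21 and its neighbour Vmp1, so its levels of 5.68 ± 0.07 in knockout and 5.63 ± 0.02 in control (SD, n = 3 each) do not check the deletion.

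Of the 27 calls, 16 kept their side of the threshold and direction in all of the 14 refits that tested them. They were both Snora73b and both Snord13 probe sets, Snora73a and Scarna10 among risers, and Snord69, Snord92, Snora75, Snord73a, Snord16a, Scarna6, Snord71, Snord35a, Snord14a and Snord17 among those that fell. No called probe set changed direction in any refit. Each of the other 11 calls was lost on leaving out 1 of several arrays, and some also in refits with all 6 arrays. Without knockout array 2 or control array 2 only 11 snoRNA and scaRNA probe sets fell, and without knockout array 3 only 12, in place of 19. Of all probe sets, 3502 fell without knockout array 2, 3418 without control array 2 and 3562 without knockout array 3, in place of 4430.

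Of risers, Snora78 lost its call without knockout array 2 or 3 or control array 2 or 3 (changes 0.29 to 0.42 over all refits, limma adjusted p up to 0.081). Snord104 lost it without any 1 of the 3 knockout arrays or control array 2 or 3 (0.34 to 0.62, up to 0.084). Of those that fell, Snora69 lost it without knockout array 2 or 3 or control array 2 or 3 (-0.90 to -0.57, up to 0.086), and Snord66 without any 1 knockout array or control array 2 (-0.88 to -0.48, up to 0.085). Snord87 lost it without knockout array 1 or 3 or any 1 control array (-0.59 to -0.37, up to 0.089), and Snora47 without knockout array 1 or 2 or control array 1 (-0.33 to -0.24, up to 0.084). Snora20 lost it without any 1 of the 6 arrays (-0.39 to -0.26, up to 0.108), and also with no filter on dim probe sets. Snora30 lost it without knockout array 2 or 3 or control array 1 or 2 (-0.59 to -0.34, up to 0.113), and Snord82 without knockout array 2 or 3 or any 1 control array (-0.85 to -0.46, up to 0.123). Snord4a lost it without any 1 knockout array or control array 2 or 3 (-0.40 to -0.24, up to 0.115), and Snord61 without any 1 knockout array or control array 1 or 2 (-0.36 to -0.23, up to 0.132). With all 6 arrays, Snora30, Snord4a, Snord61 and Snord82 also lost it with no filter on dim probe sets, Snora30, Snord4a and Snord82 after a second quantile normalization, Snora30, Snord61 and Snord82 with array weights, and Snord61 with arrays centred on their median.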

How the data were processed

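Total RNA (250 ng per sample) from sorted LSK cells was labelled and hybridised to Affymetrix arrays, 1 per sample, per the labels' protocols. The authors deposited log2 values per probe set, made with RMA, per the submitters' processing notes. The version and the genome build are not given in the sources used here. No source used here gives the log base; values of up to 11.5 fit base 2. RMA forces 1 distribution on all arrays, which removes any change common to most transcripts.

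Genes were named from GEO's platform annotation (30604 probe sets with 1 gene, 2146 with several, 33206 unlisted). All 62 snoRNA and scaRNA probe sets matched a RefSeq gene of GRCm38.p6, from which hosts were taken as genes whose span holds the small RNA gene. Where spans overlap, values are those of the smallest span with a probe set of its own. Strand was not checked, although the design asked for the same strand. Probe sets with a mean of at least 1.92 (32985) were fitted with limma 3.58.1 in R 4.3.3 (two-sided, lmFit and eBayes), and p-values were adjusted over all 32985 by Benjamini-Hochberg, with a threshold of 0.05. A change with ± has limma's SE.

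Members, gene lists and grouping by host were chosen with earlier results of these data known. The text names the 8 highest and 8 lowest called C/D and H/ACA probe sets, the 3 with the highest means in each, all scaRNAs, those nearest the level threshold, those with a role of their own in rRNA processing, their hosts, and up to 4 genes per list by p. Other list genes (Gemin2, Lsm10, Rbm7 and Tent4b) were named to complete a count after their values were seen. Same-numbered arrays were checked for pairing by the correlation of their deviations from group means (0.17, 0.20 and 0.07), which did not establish pairs. The number of arrays, 3 per group, limits the precision. Some lineage markers are not reported here.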

Additional observations from a re-analysis of the deposited data

How the results depend on the processing

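The 27 called probe sets kept their direction in the 14 refits, and 16 kept their call in all of these; of the 16, 13 also reached a fold of 1.5. The counts of 19 lower snoRNA and scaRNA, 13 lower C/D and 5 lower H/ACA probe sets were 10, 7 and 2 with a fold of at least 1.5 required in addition, and H/ACA had 3 with no filter on dim probe sets. With that fold, 480 of all probe sets were higher and 1723 lower (3781 and 4430 without it), 0 host genes were called in either direction, and 0 genes of the 7 lists were higher and 3 lower. With 1 probe set per gene symbol, 3632 of all were higher and 2277 lower. This refit leaves out unlisted probe sets and those with several genes, so these counts are out of fewer probe sets. In it 4 hosts were higher and 13 list genes lower (1 and 8 before). Hosts called higher were 2 with a stricter filter on dim probe sets, 2 with an intensity trend in eBayes, and 3 with a second quantile normalization or with array weights. With the replicate number as a block, 6 C/D probe sets were higher (3 without), 2 hosts were higher, and in all 11 snoRNA and scaRNA probe sets were higher and 17 lower, with Snord4a, Snord61 and Snord82 no longer called; each knockout array correlated best with the control array of its own number.

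Leaving out 1 array at a time gave 2100 to 3035 higher and 3418 to 3954 lower among all probe sets. It gave 11 to 15 lower snoRNA and scaRNA, 8 to 10 lower C/D and 1 to 4 lower H/ACA probe sets. It gave 1 to 2 hosts higher and 0 to 2 lower, and 7 to 20 list genes higher and 4 to 7 lower. The median change of all 62 was then -0.17 to -0.084, and that of Cajal body RNAs -0.21 to 0.026.

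Of probe sets not called, 8 passed in 1 or more settings and 15 changed direction in 1 or more. Snord55 had -0.0042 with arrays centred on their median and -0.073 with array weights. With array weights Snord93 had -0.0022, Snord15a 0.014, Snord49b 0.056 and Snord72 0.029, and Snord72 had 0.0074 after a second quantile normalization. Leaving out 1 array at a time, the change was -0.24 to 0.026 for Scarna8, -0.43 to 0.011 for Snora16a, -0.014 to 0.21 for Snora62, -0.093 to 0.018 for Snora7a, -0.0017 to 0.15 for Snord11, -0.30 to 0.030 for Snord110, -0.30 to 0.23 for Snord15a, -0.21 to 0.035 for Snord37, -0.34 to 0.25 for Snord49b, -0.13 to 0.15 for Snord55, -0.053 to 0.16 for Snord70, -0.18 to 0.16 for Snord72, -0.0092 to 0.068 for Snord8, -0.037 to 0.086 for Snord83b and -0.13 to 0.17 for Snord93. The cause of these differences was not tested.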

Other observations

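A further 39 probe sets at the level threshold are named for a snoRNA or scaRNA gene together with other genes, so their values belong to no single gene. Of these, 4 rose and 5 fell in knockout LSK cells by limma's adjusted p under 0.05 (23.1% called, against 24.9% of all probe sets tested), with a median change of 0.04. The largest fall was that of the probe set for Gm22858 and Snord53, with 5.33, 4.83 and 5.15 on knockout arrays, against 6.26, 6.19 and 5.75 on control arrays (change -0.97, limma adjusted p = 0.005). The probe set for Eif5 and Snora28 had 6.99, 7.13 and 7.21 in knockout, against 7.67, 7.73 and 7.71 in control (change -0.59, limma adjusted p = 0.001). Besides the one for Snhg3 and Snora73a, those for 1110038B12Rik with Snord52 (0.40), AA465934 and AI450353 with Snord7 (0.40) and 1500012F01Rik with Snord12 (0.35) rose.

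Among the other RefSeq snoRNA genes, which carry provisional symbols, the lowest adjusted p values were those of Gm12238 (change -0.91) and Gm24119 (-0.82). No role is given to these genes in the files.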
